A study of Mus musculus with 6 samples.

Results

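The NKR-P1 receptors and their Clec2 ligands are C-type lectin-like proteins of natural killer (NK) cells and their targets, encoded close together on mouse chromosome 6. Expression of 4 receptor genes (Klrb1a, Klrb1b, Klrb1c and Klrb1f) and 2 ligand genes (Clec2d and Clec2i) was read from RNA-seq counts of thymic NK cells. The 6 genes were chosen by symbol, through their Entrez IDs, among the 26332 genes of the deposited table, and all 6 were found. KO libraries came from 2 C57BL/6 mice with a knockout of Tcf7, the gene of the transcription factor TCF-1, and WT libraries from 4 wild-type C57BL/6 mice, with 1 mouse for each library. KO 1, WT 1 and WT 3 were labelled male, and KO 2, WT 2 and WT 4 female. The age of the mice, the knockout allele and the cells in which it acts were not given in the sources used here.

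NKR-P1 receptors are type II membrane proteins that NK cells use to read Clec2 (Clr) proteins on neighbouring cells. NKR-P1B, the product of Klrb1b, is inhibitory: its cytoplasmic tail carries a tyrosine motif that recruits the phosphatase SHP-1 (Ptpn6), and its ligand is Clr-b, the product of Clec2d, which most blood cells display. NKR-P1C, the product of Klrb1c and the NK1.1 antigen, is activating and pairs with the FcRgamma adaptor (Fcer1g). NKR-P1A (Klrb1a) and NKR-P1F (Klrb1f) are counted among the activating members, and Clr-g (Clec2i) is a ligand of NKR-P1F.

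Cells of both genotypes were sorted from single thymi as positive for NK1.1 and NKp46, without staining for CD1d tetramer, CD8, CD3 or TCRbeta. NK1.1 is the protein of Klrb1c and NKp46 that of Ncr1, so every library holds cells picked for Klrb1c protein, and Klrb1c transcript was measured inside that gate. Total counts ranged from 16418910 to 26245132 in KO libraries and from 16666151 to 31155303 in WT libraries. Levels are given as TMM-scaled CPM (counts scaled to the library total and corrected for composition). A set floor of 3 counts corresponds to between 0.0963 and 0.183 CPM by library total, before that correction. Tcf7, the targeted gene, had 268 and 452 CPM in KO 1 and KO 2, against 811 to 947 CPM in WT libraries. Ncr1, the other gate marker, had 983 and 740 CPM in KO 1 and KO 2, against 820 to 1037 CPM in WT libraries, which overlap. The immediate early gene Fos set WT 3 and WT 4 apart, and its level was 4.98 and 3.42 CPM in KO 1 and KO 2, against 45.3, 31.8, 315 and 278 CPM in WT 1 to WT 4. Genes were called at an adjusted p under 0.05 in edgeR's quasi-likelihood test over 13652 genes, all 6 NKR-P1 and Clec2 genes among them. Called genes numbered 1872, with 1110 higher and 762 lower in KO, or 1336 higher and 523 lower with library-size scaling. That total was 1015 without KO 1, 934 without KO 2, 1002 without WT 1 and 1022 without WT 3.

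The receptor genes are close copies of one another. Between Klrb1a and Klrb1c, 92.5% of aligned coding bases were identical, against 87.9% between Klrb1b and Klrb1c and 71.6% to 74.7% between Klrb1f and the other 3 genes. Clec2d and Clec2i shared 86.5%. The start of the Klrb1b coding sequence encodes the cytoplasmic tail, where inhibitory and activating members differ. That stretch is shown for the 4 receptor genes. The first line gives the first 105 coding bases of Klrb1b, and the other lines the 102 bases of each gene that align with it, from GENCODE M21 transcripts. They are coding bases 19 to 120 of Klrb1a, 145 to 246 of Klrb1c and 1 to 102 of Klrb1f. The Klrb1a and Klrb1c lines thus begin after the annotated coding start of the transcripts used. Capitals mark bases that differ from Klrb1b, which number 26 in Klrb1a, 29 in Klrb1c and 33 in Klrb1f.
Klrb1b: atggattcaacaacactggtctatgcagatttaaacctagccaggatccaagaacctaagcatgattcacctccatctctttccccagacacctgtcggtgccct
Klrb1a: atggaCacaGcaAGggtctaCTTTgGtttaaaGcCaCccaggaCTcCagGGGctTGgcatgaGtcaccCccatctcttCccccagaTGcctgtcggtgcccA
Klrb1c: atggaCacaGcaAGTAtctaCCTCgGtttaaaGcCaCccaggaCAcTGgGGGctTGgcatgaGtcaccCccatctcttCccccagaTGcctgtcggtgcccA
Klrb1f: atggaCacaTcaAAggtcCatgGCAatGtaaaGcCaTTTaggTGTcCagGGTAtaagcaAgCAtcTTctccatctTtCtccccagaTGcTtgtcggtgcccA

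Of the 6 genes, 1 rose in KO (Klrb1b), 2 fell (Klrb1a and Klrb1c) and 3 were not called (Klrb1f, Clec2d and Clec2i). Over all genes tested, 13.7% were called, 8.13% as higher and 5.58% as lower in KO. The KO and WT libraries did not overlap for 4 of the 6 genes, which were the 4 receptor genes, with 1 above and 3 below WT. Over all genes, 39.3% did not overlap in either direction, 20.5% with KO higher and 18.8% with KO lower. The median log2 fold change of the 6 genes was -0.20, against 0.02 over all genes tested. The calls of Klrb1b, Klrb1a and Klrb1c held under RLE, upper-quartile and library-size scaling.

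**Figure D1:**
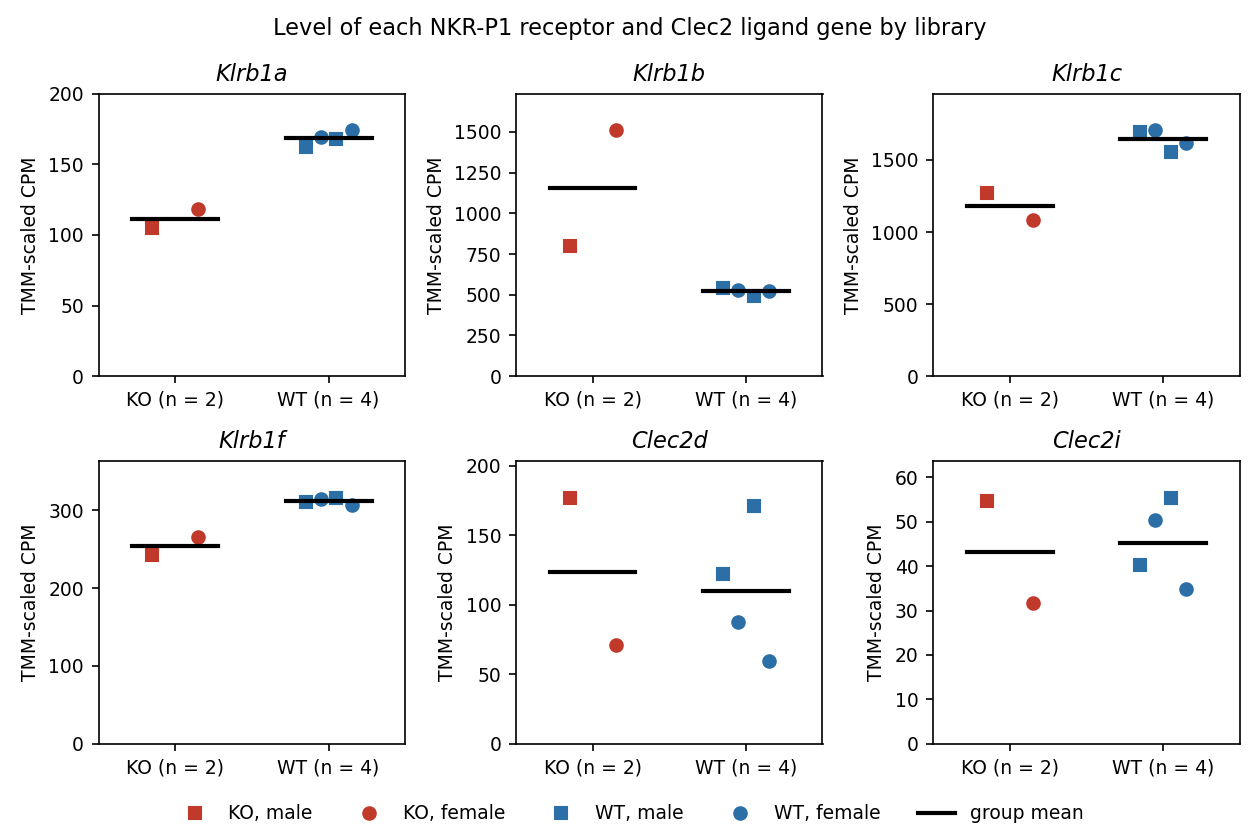
TMM-scaled CPM of the 4 receptor and 2 ligand genes, with 1 point per library, KO left of WT, squares for male mice, circles for female mice and a bar at the group mean. Klrb1b lies above WT in both KO libraries, Klrb1a, Klrb1c and Klrb1f lie below WT in both, and the ligand genes overlap.

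Klrb1b, the inhibitory receptor gene (Entrez 80782, chr6:128813706-128826315, mm10), had 797 and 1509 CPM in KO 1 and KO 2, against 544, 529, 490 and 523 CPM in WT 1 to WT 4. Both KO libraries lay above every WT library, KO 2 by far the most. The means were 1153 ± 504 CPM in KO (SD, n = 2) and 521 ± 22.7 CPM in WT (SD, n = 4). The log2 fold change was 1.10 (SE 0.18, 95% interval 0.68 to 1.51, adjusted p = 0.00837 in edgeR's test), a 2.14-fold higher level in KO. The size rested on which KO library was kept: 1.51 without KO 1 (adjusted p = 0.00114) and 0.62 without KO 2 (adjusted p = 0.0315). Klrb1b was called under all 17 alternatives run.

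The KO 1 and KO 2 mice also differ in labelled sex, so the same spread can be read within each sex. Among males, Klrb1b was 1.54-fold higher in KO 1 than the mean of WT 1 and WT 3, and among females 2.87-fold higher in KO 2 than the mean of WT 2 and WT 4. The genotype by sex interaction, male minus female, was -0.90 on the log2 scale (SE 0.16, unadjusted p = 0.00137, adjusted p = 0.344), and it was not called. With 1 KO mouse of each sex, sex and the individual mouse cannot be told apart. No gene was called in that edgeR test (0%), with 1368 of 13652 at an unadjusted p under 0.05. DESeq2 called 130 genes and edgeR with no expression filter 91, Klrb1b among them in both, and limma voom called 0.

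Klrb1c, the gene of NK1.1 (Entrez 17059, chr6:128778485-128788641), had 1270 and 1084 CPM in KO 1 and KO 2, against 1691, 1705, 1555 and 1616 CPM in WT 1 to WT 4. Both KO libraries lay below every WT library, with KO 2 the lower. The means were 1177 ± 131 CPM in KO (SD, n = 2) and 1642 ± 69.8 CPM in WT (SD, n = 4), and the log2 fold change was -0.48 (95% interval -0.70 to -0.27, SE 0.09, adjusted p = 0.0149). Klrb1c was no longer called without KO 2 (-0.36, adjusted p = 0.0912) and without WT 1 (-0.48, adjusted p = 0.0585). Because the gate used NK1.1 protein, cells with little of it are outside every library, and the values describe sorted cells only. In sorted populations of this kind, fewer cells with a transcript and less transcript per cell cannot be told apart.

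Klrb1a, the gene of NKR-P1A (Entrez 17057, chr6:128609227-128622934), had 105 and 118 CPM in KO 1 and KO 2, against 162, 169, 168 and 174 CPM in WT 1 to WT 4. Both KO libraries were below all 4 WT libraries, which lay close together. The means were 111 ± 9.15 CPM in KO (SD, n = 2) and 168 ± 4.67 CPM in WT (SD, n = 4). The log2 fold change was -0.60 (SE 0.10, 95% interval -0.82 to -0.37, adjusted p = 0.0081), and Klrb1a was no longer called without KO 1 (-0.55, adjusted p = 0.0643). Klrb1a is the most like Klrb1c in sequence, and 2.83% of its 75-base windows are also found in Klrb1c transcripts, so its counts are uncertain as far as such reads were split or dropped.

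Klrb1f, the gene of NKR-P1F (Entrez 232408, chr6:129045837-129059724), had 242 and 266 CPM in KO 1 and KO 2, against 311, 315, 316 and 307 CPM in WT 1 to WT 4. Both KO libraries lay below a narrow WT range. The means were 254 ± 17.1 CPM in KO (SD, n = 2) and 312 ± 3.84 CPM in WT (SD, n = 4). Its log2 fold change of -0.30 (SE 0.09, 95% interval -0.51 to -0.09) was not called by edgeR (adjusted p = 0.0687), but was called by DESeq2 (-0.29, adjusted p = 0.00383) and by limma voom (-0.30, adjusted p = 0.0477). None of its 75-base windows was found in another gene.

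Clec2d, the gene of Clr-b and so of the ligand of NKR-P1B (Entrez 93694, chr6:129180615-129186535), had 177 and 70.7 CPM in KO 1 and KO 2, against 122, 87.9, 171 and 59.3 CPM in WT 1 to WT 4. The groups overlapped over nearly their whole range. The means were 124 ± 75.2 CPM in KO (SD, n = 2) and 110 ± 48 CPM in WT (SD, n = 4), and the log2 fold change was 0.11 (SE 0.20, 95% interval -0.35 to 0.58, adjusted p = 0.757). It was -0.066 without KO 1 and -0.01 without WT 1. The interval leaves room for a change of the size seen for Klrb1f in either direction.

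The values of Clec2d were also read by the labelled sex of the mouse, a contrast chosen after they were seen. Its level was 177, 122 and 171 CPM for the males KO 1, WT 1 and WT 3, and 70.7, 87.9 and 59.3 CPM for the females KO 2, WT 2 and WT 4. All 3 male libraries lay above all 3 female libraries, as they did for 4.25% of all genes tested (7.77% in either direction). The male minus female difference was 1.10 on the log2 scale (SE 0.19, unadjusted p = 0.000541), but it was not called in edgeR's test over all genes (adjusted p = 0.759). No gene was called for sex (0%), with 866 at an unadjusted p under 0.05 and a lowest adjusted p of 0.118. The sex labels were taken as given and were not checked against sex-linked genes, so every reading by sex rests on them. As no gene was called for sex, no sex-linked gene was called either, and that test gives the labels no backing. Over the alternatives of that test the adjusted p for Clec2d ran between 0.0121, with no expression filter, and 1. WT 3 and WT 4, which stood apart together in Fos, were the highest and the lowest WT library in Clec2d.

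Clec2i, the gene of Clr-g (Entrez 93675, chr6:128887587-128898168), had 54.8 and 31.8 CPM in KO 1 and KO 2, against 40.2, 50.5, 55.4 and 34.8 CPM in WT 1 to WT 4. KO 2 was the lowest library and KO 1 stood within the WT range, so the groups overlapped. The means were 43.3 ± 16.3 CPM in KO (SD, n = 2) and 45.2 ± 9.41 CPM in WT (SD, n = 4). The log2 fold change was -0.10 (SE 0.22, 95% interval -0.62 to 0.41, adjusted p = 0.80), and it was 0.19 without KO 2 and 0.058 without WT 2. Of its 75-base windows, 3.09% also occur in Clec2h.

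The receptor genes varied little among WT mice and the ligand genes much more. The coefficient of variation over WT 1 to WT 4 was 1.23% for Klrb1f, 2.78% for Klrb1a, 4.25% for Klrb1c and 4.36% for Klrb1b. It was 20.8% for Clec2i and 43.6% for Clec2d. The median over 7741 tested genes with a WT mean of at least 16 CPM was 8.85%, so all 4 receptor genes lay below it and both ligand genes above. These are descriptions over 4 mice, with no test.

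Levels of different genes can be compared only per length, so counts per kilobase of the deposited gene length, on the CPM scale (RPKM) were used. Klrb1c had 482 and 412 RPKM in KO 1 and KO 2, against 591 to 648 in WT libraries, and Klrb1b had 360 and 682 RPKM against 221 to 246. Klrb1b stood second after Klrb1c in KO 1 and in all 4 WT libraries, and first in KO 2. The order of these genes in KO is therefore not resolved, since their 2 KO values overlap. Klrb1f came next, at 142 and 156 RPKM in KO and 180 to 185 RPKM in WT, except in KO 1, where Clec2d was above it. Klrb1a had 82.3 and 92.5 RPKM in KO and 127 to 136 RPKM in WT. Clec2d, at 146 and 58.3 RPKM in KO and 48.8 to 141 RPKM in WT, overlapped Klrb1a in both groups. Clec2i was the lowest of the 6 genes in every library, at 56.1 and 32.5 RPKM in KO and 35.7 to 56.7 RPKM in WT, though its range overlapped that of Clec2d in WT.

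The makeup of the receptor transcripts differed more than their sum. The summed per-length level of Klrb1a, Klrb1b, Klrb1c, Klrb1f and Klrb1 was 1079 and 1357 RPKM in KO 1 and KO 2, against 1154 to 1227 RPKM in WT libraries, which lie inside the KO values. Klrb1b took 33.4% and 50.3% of that sum in KO 1 and KO 2, against 19.2% to 20.1% in WT libraries. Klrb1c took 44.7% and 30.4% in KO, against 51.2% to 52.8% in WT. The share of Klrb1f was 13.1% and 11.5% in KO and 14.9% to 16% in WT, and that of Klrb1a 7.63% and 6.82% in KO and 10.4% to 11.5% in WT. Shares within a sum depend on one another, and no test was made on them.

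**Figure D2:**
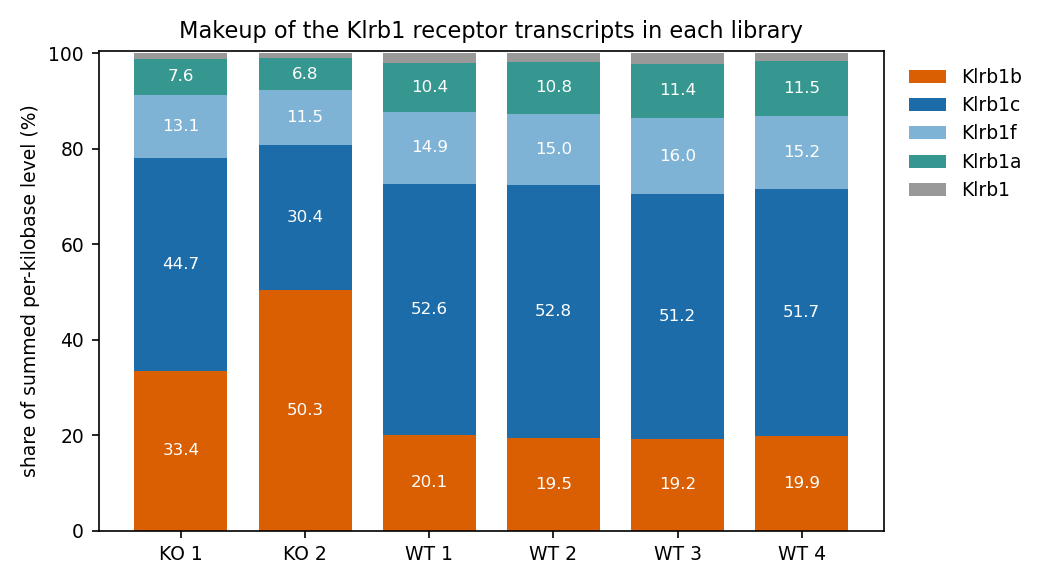
Share of the summed per-kilobase level of the 5 Klrb1 genes (%), stacked by gene, with 1 bar per library and KO left of WT. Klrb1b takes 33.4% and 50.3% in KO 1 and KO 2, against 19.2% to 20.1% in the WT libraries, which are nearly alike.

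The ratio of Klrb1b to Klrb1c does not depend on library scaling. It was 0.747 and 1.66 in KO 1 and KO 2, against 0.369 to 0.385 in WT libraries, on per-length levels. Both KO values lay above the narrow WT range. In raw counts, Klrb1b made up 32.9% of the Klrb1 counts in KO 1 (95% Wilson interval 32.4% to 33.4%) and 50.5% in KO 2 (50.2% to 50.9%). In the WT libraries its share lay between 19.3% and 20%. These intervals cover counting error only and are narrower than the gap between the KO mice. The ratios Klrb1a to Klrb1c and Klrb1f to Klrb1c overlapped between the groups, at 0.171 and 0.225 in KO against 0.198 to 0.223 in WT for Klrb1a, and at 0.293 and 0.378 in KO against 0.283 to 0.313 in WT for Klrb1f. The receptor to ligand ratio Klrb1b to Clec2d was 2.47 and 11.7 in KO 1 and KO 2, against 1.57 to 4.84 in WT, which overlap.

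Sequence shared with other annotated genes may limit how exactly reads of Klrb1b and Klrb1c can be assigned. Of the 75-base windows of Klrb1b transcripts, 26.9% also occur in another gene, nearly all of them in Gm44511 (26.2%), a GENCODE gene that spans Klrb1b and Klrb1c. For Klrb1c the share was 15%, with 13.1% in Gm44511. As Gm44511 spans both genes, windows shared with it can be the same bases annotated again and need not be copies. Only 0.743% of Klrb1b windows occur in Klrb1c and 0.882% in Klrb1a, and 0.628% of Klrb1c windows in Klrb1b. The table has no row named Gm44511, and how the authors' annotation treated its exons was not tested.

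Genes around the receptors on chromosome 6 were compared to see how far the changes reach. The 6 genes span 577 kb, in which RefSeq lists 21 other genes, of which 7 are in the table and 4 were tested. Of these 4, none rose, 2 fell and 2 were not called, where 8.13% of all genes tested were called higher and 5.58% lower. Their median log2 fold change was -0.70. Klrb1, the gene of the inhibitory receptor NKR-P1G, had 8.4 and 9.47 CPM in KO 1 and KO 2, against 16.1, 15.2, 16.6 and 13.3 CPM in WT 1 to WT 4. Both KO libraries were below WT, by -0.77 on the log2 scale (SE 0.19, adjusted p = 0.0378). That call held under 9 of 17 alternatives and was lost without KO 1 (-0.60), KO 2 (-0.96), WT 1 (-0.75), WT 2 (-0.75) or WT 3 (-0.74), with adjusted p of 0.0625 to 0.187.

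BC035044 had 24.9 and 13.9 CPM in KO 1 and KO 2, against 30.8 to 33.6 CPM in WT libraries (log2 fold change -0.77, adjusted p = 0.0496). Its annotated span overlaps that of Clec2i, and without strand their reads in the shared part cannot be told apart. That call held under 5 of 17 alternatives and was lost whenever 1 library was left out other than KO 1, with -0.37 without KO 2 and adjusted p of 0.0661 to 0.223. Gm15987 and BC064078 had log2 fold changes of 1.25 (adjusted p = 0.331) and -0.64 (adjusted p = 0.0704). Klrb1b was thus the only gene called higher among the 10 tested in this span, where 8.13% of all genes tested were called higher. Its nearest tested neighbours, Klrb1c and BC035044, were called lower.

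**Figure D3:**
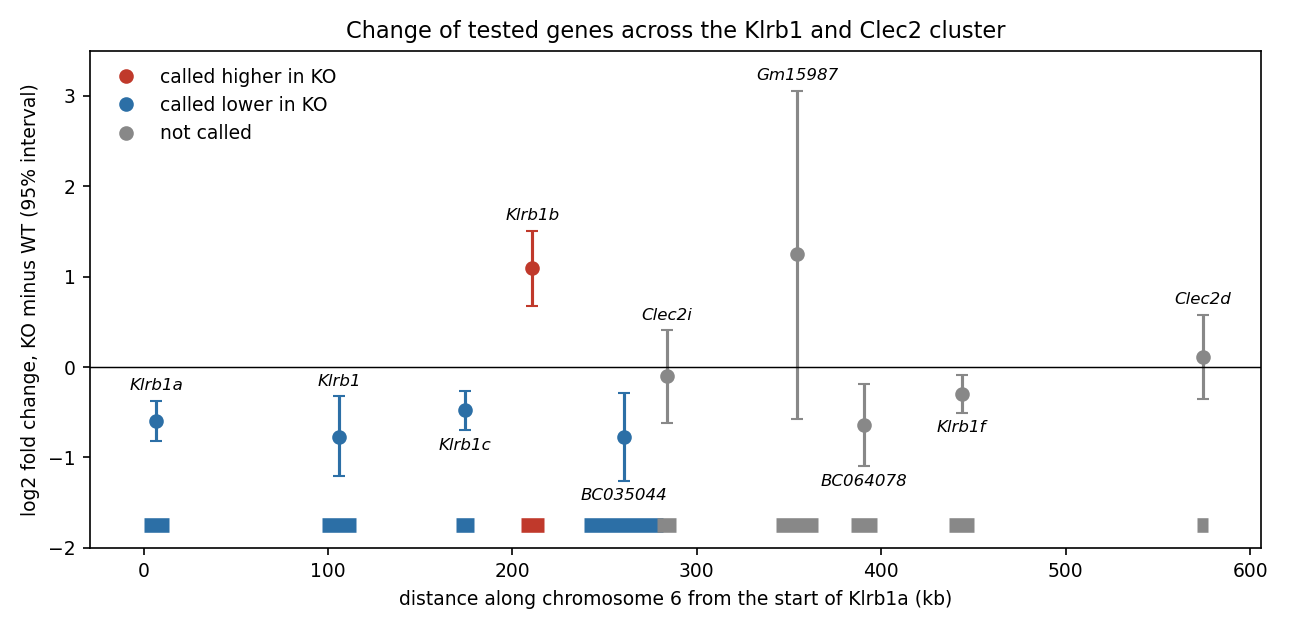
Log2 fold change KO minus WT with its 95% interval for the 10 tested genes between Klrb1a and Clec2d, placed by distance along chromosome 6 in kb, with blocks for the gene spans. Klrb1b, at 1.10, stands above 0 between the lower Klrb1c and BC035044.

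Other Klrb1 and Clec2 genes were few in these cells. Of 11 listed, 6 were in the table and 2 were tested, Klrb1 and Clec2l, which lies elsewhere on the chromosome. Clec2l had 1.22 and 6.65 CPM in KO 1 and KO 2, against 0.445, 1.58, 1.32 and 1.13 CPM in WT 1 to WT 4, and was not called by edgeR (log2 fold change 1.52, adjusted p = 0.17). It was 2.28 without KO 1 and 0.48 without KO 2, and limma voom called it (1.93, adjusted p = 0.0301). KO 1 lay inside the WT range and KO 2 above it. Clec2g had 9 counts in KO and 14 in WT, Clec2h had 1 and 2, Clec2e had 0 and 1, and Clec2m had 0 in all 6 libraries.

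Promoters are shown for the gene that rose and for the 2 that fell, as the 250 bases before the RefSeq start (GRCm38.p6, the same build as mm10), each on the minus strand of chromosome 6. The windows are chr6:128826316-128826565 for Klrb1b, chr6:128788642-128788891 for Klrb1c and chr6:128622935-128623184 for Klrb1a. Over the 300-base windows that run 50 bases past the start, 260 bases of Klrb1a and Klrb1c could be aligned, of which 236 were identical (90.8%). Klrb1b aligned with Klrb1c over 42 bases, 36 of them identical, and with Klrb1a over 97 bases, 78 of them identical. Where each annotated start lies sets how much of a shared stretch falls inside the windows. In the line of Klrb1a, 23 capitals mark bases that differ from the aligned base of Klrb1c.
Klrb1b: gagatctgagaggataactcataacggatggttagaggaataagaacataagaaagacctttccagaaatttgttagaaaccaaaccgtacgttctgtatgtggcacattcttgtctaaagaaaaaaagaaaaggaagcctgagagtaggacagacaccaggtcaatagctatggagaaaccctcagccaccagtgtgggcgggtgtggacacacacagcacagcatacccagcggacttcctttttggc
Klrb1c: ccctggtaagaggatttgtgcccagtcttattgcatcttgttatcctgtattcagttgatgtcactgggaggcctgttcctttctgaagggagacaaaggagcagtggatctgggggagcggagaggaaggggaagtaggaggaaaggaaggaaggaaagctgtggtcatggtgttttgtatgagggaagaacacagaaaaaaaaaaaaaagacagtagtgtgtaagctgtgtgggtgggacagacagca
Klrb1a: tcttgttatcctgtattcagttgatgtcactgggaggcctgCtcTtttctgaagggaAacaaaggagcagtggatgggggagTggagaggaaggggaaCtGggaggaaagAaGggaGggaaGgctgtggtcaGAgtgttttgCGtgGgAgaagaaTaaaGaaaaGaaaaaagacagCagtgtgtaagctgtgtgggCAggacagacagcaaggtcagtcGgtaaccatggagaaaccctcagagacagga

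The core of the motif that TCF proteins bind, CTTTGA, was searched on both strands of the 300-base windows of all 6 genes and of Klrb1. It occurs in 16% of 32851 mouse promoter windows of that length. Klrb1b holds 1 match, 19 bases after the start, Klrb1f, which was not called, holds 1 at -145, and Klrb1, which fell, holds 1 at 20 bases after the start. Klrb1a, Klrb1c, Clec2d and Clec2i hold none in these windows. The matches describe letters, and binding was not measured.

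Signalling partners were read from a list of 22 genes, all tested. Of these, 2 rose, 3 fell and 17 were not called, where 8.13% of all genes tested were called higher and 5.58% lower. Their median log2 fold change was -0.15, against 0.02 over all genes. The count of called partners was 3 without KO 2, 2 without WT 1, 3 without WT 2 and 3 without WT 3, and DESeq2 called 8. Fcer1g, the adaptor of NKR-P1C, had 431 and 583 CPM in KO 1 and KO 2, against 584 to 659 CPM in WT libraries, with a log2 fold change of -0.27 (adjusted p = 0.139). Lck, the kinase that NKR-P1C binds, had 691 and 672 CPM in KO against 780 to 877 CPM in WT, with a log2 fold change of -0.27 (adjusted p = 0.0769). Both were below WT in both KO libraries, though Fcer1g in KO 2 nearly equalled the lowest WT library. Of the 22 partners, 9 lay below all WT libraries in both KO libraries and 3 above, against 18.8% and 20.5% of all genes tested. Neither Fcer1g nor Lck was called by edgeR, while DESeq2 called Lck (-0.26, adjusted p = 0.0118). Ptpn6, which encodes SHP-1, had 472 and 386 CPM in KO against 371 to 466 CPM in WT, with a log2 fold change of 0.02 (95% interval -0.26 to 0.30, adjusted p = 0.926). Its groups overlapped, so Klrb1b rose while no change of Ptpn6 was called.

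Plcg1, a phospholipase of receptor signalling, rose, with 41 and 44.6 CPM in KO 1 and KO 2, against 6.76, 11.2, 4.92 and 13.3 CPM in WT 1 to WT 4. Both KO libraries stood above all WT libraries, and the log2 fold change was 2.34 (SE 0.24, adjusted p = 0.0014). Plcg2, also on the partner list, had 192 and 220 CPM in KO 1 and KO 2, against 207 to 231 CPM in WT libraries. It was not called (-0.11, adjusted p = 0.517). Lat, the membrane adaptor that Plcg1 docks to, rose by a smaller amount, with 103 and 105 CPM in KO against 61.4 to 83.4 CPM in WT (0.55, adjusted p = 0.0214). The Lat call was lost without KO 1 (0.37, adjusted p = 0.176), WT 1 (0.54, adjusted p = 0.0725) or WT 3 (0.51, adjusted p = 0.0794).

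Fyn, a Src-family kinase, had 519 and 298 CPM in KO 1 and KO 2, against 794, 753, 785 and 748 CPM in WT 1 to WT 4. It fell, further in KO 2, by -0.95 on the log2 scale (SE 0.16, adjusted p = 0.00926), or by -0.61 without KO 2. Syk, the kinase that docks to tyrosine motifs of adaptors, had 235 and 162 CPM in KO against 261 to 301 CPM in WT (-0.51, adjusted p = 0.036). The ubiquitin ligase gene Cblb had 182 and 176 CPM in KO against 229 to 287 CPM in WT (-0.54, adjusted p = 0.0271). Plcg1 and Fyn were called under all 17 alternatives, Lat and Cblb under 13 and Syk under 11. Without 1 library, Syk lost its call for KO 2 (-0.30), WT 1, WT 2 or WT 3, with adjusted p of 0.0598 to 0.222, and Cblb for KO 1, KO 2, WT 1 or WT 2, with adjusted p of 0.0632 to 0.139.

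**Figure D4:**
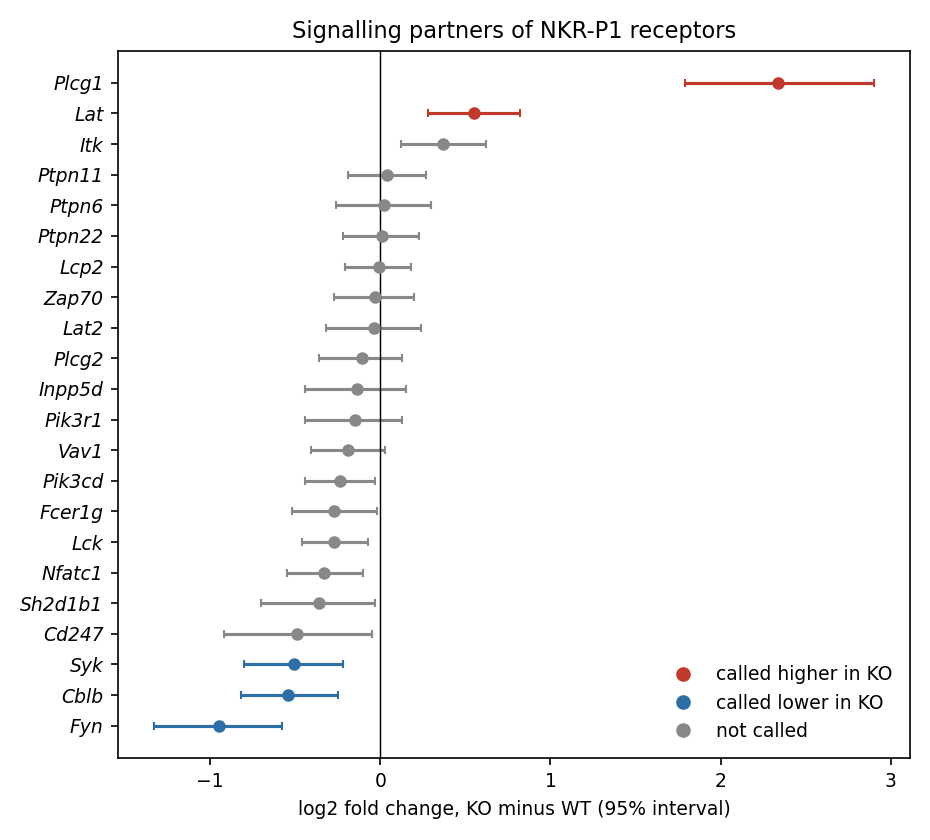
Log2 fold change KO minus WT with its 95% interval for 22 signalling partners of NKR-P1 receptors, ordered by fold change. Plcg1 (2.34) and Lat (0.55) were called higher, Syk, Cblb and Fyn (-0.51 to -0.95) lower, and Ptpn6 sits at 0.02.

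The genes with the most similar profile over the 6 libraries were found among 7859 candidates by the root mean square difference of centred log2 CPM. For Klrb1b they were Plekhm3 (0.069), Xrcc6 (0.11) and Arrb1 (0.11). Plekhm3 had 53.3 and 95.4 CPM in KO 1 and KO 2, against 32.2 to 33.4 CPM in WT libraries. The profiles are alike because the genes were picked for that. For Klrb1c they were Arsb (0.03), Stk26 (0.032) and Vezf1 (0.033), and for Klrb1a St3gal6 (0.041), Qk (0.041) and Tmem9b (0.048). None of these 9 genes lies on chromosome 6.

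Markers of other cell types were read in the same libraries, as sums of CPM and as the number of genes for which both KO libraries lay above all WT libraries. Over all genes tested, 20.5% lay above in this way and 18.8% below, and 8.13% were called higher and 5.58% lower. NK markers, Klrb1c among them, summed to 10475 and 9512 CPM in KO 1 and KO 2, against 12237 to 13310 CPM in WT. Of these, 5 of 10 lay below all WT libraries and 3 were called lower. Those 3 were Klrb1c, Eomes (log2 fold change -2.11) and Tyrobp (-0.67), and no NK marker was called higher. Alpha-beta T cell markers summed to 1623 and 2129 CPM in KO, against 326 to 521 CPM in WT, with 8 of 12 above and 5 called higher. Trac and Trbc2, the constant regions of the T cell receptor chains, made up most of that sum in KO. Cd3e, a chain of the CD3 complex that the gate stained, had 131 and 82.3 CPM in KO against 18.1 to 74.9 CPM in WT and was not called.

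Stromal markers summed to 272 and 450 CPM in KO, against 111 to 120 CPM in WT, with 4 of 9 above and 4 called higher. Pecam1, which encodes CD31, made up most of it, with 245 and 402 CPM in KO against 103 to 113 CPM in WT. Epcam had 21.3 and 34.9 CPM in KO 1 and KO 2, against 4.82 to 6.36 CPM in WT. Krt8 had 2.32 and 8.47 CPM in KO 1 and KO 2, against 0 to 0.162 CPM in WT. Krt5, Foxn1, Col1a1 and Pdgfra were under 1 CPM everywhere. Krt5, at 0.985 and 0.966 CPM in KO against 0 to 0.0404 CPM in WT, was still called higher, as were Pecam1, Epcam and Krt8. ILC2 and ILC3 markers summed to 196 and 276 CPM in KO, against 116 to 131 CPM in WT, with 5 of 10 above and 4 called higher, and Il17a and Il22 at 0 in all libraries. The remaining sums overlapped between the groups.

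Myeloid and dendritic cell markers summed to 428 and 510 CPM in KO, against 330 to 437 CPM in WT, with 6 of 13 above and 3 called higher. Itgam made up most of it, with 347 and 280 CPM in KO against 319 to 368 CPM in WT, and Cd14 was under 1 CPM everywhere. B cell markers summed to 565 and 422 CPM in KO, against 377 to 430 CPM in WT, with 6 of 10 above and 6 called higher, and Ighm, at 357 and 365 CPM in KO against 359 to 406 CPM in WT, made up most of it. Gamma-delta T cell markers, 4 of 7 found, summed to 372 and 181 CPM in KO, against 154 to 242 CPM in WT, with 2 above and 2 called higher. Klrb1b was higher in KO 2 than in KO 1, as were the alpha-beta T, stromal, myeloid and ILC sums, whereas the B cell and gamma-delta sums were lower in KO 2, as were Cd3d, Cd3e, Cd3g, Cd8a, Cd6 and Trbc1. The part of such cells in the changes of the receptor genes and of the signalling partners was not tested.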

How the data were processed

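Thymi were pressed through a sieve, NK cells were sorted by flow cytometry, and SMART-Seq v4 libraries, which amplify full-length cDNA without marking strand, were sequenced in paired-end mode, per the labels' protocols. The deposited values are raw counts, whole numbers for each Entrez gene, made with featureCounts on mm10 per the submitters' processing notes. Aligner and software versions were not given in the sources used here. Gene lengths are the authors' deposited values and served only for RPKM. Reads of close copies or overlapping genes may be split or dropped, and without molecular identifiers intervals and floors cover counting error only. Symbols came from a RefSeq table of GRCm38.p6 (25275 of 26332 IDs matched; the other 1057 hold 0.623% of counts). The table held 0 columns of other samples. Promoters came from RefSeq (all 6 genes matched) and coding sequences from GENCODE M21.

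The comparison was fitted with edgeR 4.0.16 (R 4.3.3), with TMM scaling, filterByExpr, sex as an additive term and Benjamini-Hochberg adjustment over 13652 genes. All adjusted p come from it unless another tool is named. It had 3 residual degrees of freedom. The script was tested on simulated data. The genes, lists and tests were chosen with earlier results of these data known. Named were all 6 genes, other Klrb1 and Clec2 genes, called partners and neighbours with Fcer1g, Lck and Ptpn6, and the 3 most similar genes with a mean of at least 4 log2 CPM for each called gene. Fos and Plcg2 were named after their values were seen. Alternatives were other scalings (RLE, upper-quartile, library size), filters (none, 5 CPM in 2 libraries), no sex term, a replicate block, DESeq2 1.42.0, limma 3.58.1 voom, robust quasi-likelihood and each library left out. With 1 KO library left out, the other was assumed to vary like WT. WT 3 and WT 4 were also left out together, chosen after seeing the data. In the replicate block, WT 3 and WT 4 have no KO partner and add nothing to the KO fold change. These 2 alternatives are therefore nearly the same check (Klrb1b 1.032 and 1.034).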

Additional observations from a re-analysis of the deposited data

Results flagged for a closer look

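Fcer1g had a WT library far from the others. Its level was 659 CPM in WT 4 and 584 to 593 CPM in WT 1 to WT 3, a gap of 0.879 of the WT range, above Dixon's 95% limit for 4 samples. Of 30 groups of 4 examined, this was the only one so marked, and chance marks about 1 in 20.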

How the results depend on the processing

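Klrb1b kept its direction and call under all 17 alternatives. DESeq2 called 2955 genes over the whole table, against 1872 with edgeR, and 934 to 1908 were called with 1 library left out. Klrb1f was called by DESeq2 (-0.29) and limma voom (-0.30). The interaction called 1 of the 6 genes, Klrb1b, by DESeq2 and with no expression filter, and no library was left out of that test. With 1 library left out, log2 fold changes ran from -0.66 to -0.55 for Klrb1a, -0.62 to -0.36 for Klrb1c, -0.066 to 0.27 for Clec2d, -0.44 to 0.19 for Clec2i and -0.12 to 0.15 for Ptpn6. Ptpn6 was also -0.05 under the replicate block and -0.048 without WT 3 and WT 4 together. Whether replicate numbers pair the samples could not be decided. Deviations of KO 1 and WT 1 correlated at 0.128 and those of KO 2 and WT 2 at 0. With 2 KO libraries, however, their deviations are mirror images of each other. Replicates 1 and 2 are also labelled male and female in both genotypes, so pairing and sex cannot be told apart. With the replicate block in place of sex, 1341 genes and 3 of the 6 were called. The 2 KO mice limit all sizes, and levels under 0.0963 to 0.183 CPM by library total rest on fewer than 3 counts.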
